A study of Mus musculus with 24 samples.

Results

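Bnc2, Tshz2, Nav1 and Abca8b are listed here as markers of resting cardiac fibroblasts, a name that was not tested on these data. Their circular RNAs were followed across 24 cardiac fibroblast libraries of sham-operated and pressure-overloaded mouse hearts. They were chosen by host gene: every junction of the deposited table that lay on the gene's strand and met its annotated exon edges was taken, whatever its values. This gave 7 of the 1717 circular RNAs in the table, 2 of Bnc2, 1 of Tshz2, 3 of Nav1 and 1 of Abca8b. Both ends lay at exon edges of the host for 6 of them, and 1 Nav1 junction met the host at 1 end. Together they held 381 of 138868 junction reads, or 0.274%.

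A circular RNA forms by back-splicing, in which the spliceosome links an exon's donor site to an acceptor that lies before it in the transcript, leaving a closed ring without a cap or a poly(A) tail. Such rings lack the free ends that exonucleases attack and are usually stable, and long flanking introns that can pair with each other are known to favour their formation. In a resting heart, fibroblasts maintain the extracellular matrix. Under pressure overload they proliferate and take on a contractile, matrix-secreting state known as the myofibroblast, while their resting programme is reduced. A marker gene's circular RNA and its linear mRNA can differ in level. The linear mRNAs were not analysed here.

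All libraries came from hearts of male C57BL/6J mice. Mice of the treated groups had transverse aortic constriction (TAC) at 8 weeks of age, in which a suture tied around the aortic arch narrows it and loads the left ventricle with pressure, and sham mice had the operation with no ligation. Fibroblasts were isolated by Langendorff perfusion 1, 4 or 8 weeks later. The 13 sham libraries comprised 4 from 1 week, 5 from 4 weeks and 4 from 8 weeks, and the 11 TAC libraries 4, 4 and 3. The series concerns circular RNA in cardiac fibrosis. No genotype other than the wild-type strain, no further agent and no sort on cell type is given in the labels. They also do not say that each library is a separate animal, so the p-values rest on a spread between libraries that may be technical.

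The back-splice junctions identify the circles, and the junctions that lie in coding exons are printed because each is found only in the ring and not in the linear mRNA. Each run reads 5′ to 3′ on the strand of the gene in GENCODE M21 transcripts on mm10, from the last 30 bases of the downstream exon into the first 30 of the upstream one. Capitals mark the 10 bases on either side of the join.
Bnc2 exon 7: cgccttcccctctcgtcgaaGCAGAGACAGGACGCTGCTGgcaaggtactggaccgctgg
Bnc2 exons 2 to 3: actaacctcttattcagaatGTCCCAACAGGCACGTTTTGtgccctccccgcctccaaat
Tshz2 exon 2: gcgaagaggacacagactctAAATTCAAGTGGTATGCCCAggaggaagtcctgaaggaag
Nav1 exons 4 to 5: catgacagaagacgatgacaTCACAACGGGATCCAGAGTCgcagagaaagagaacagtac
Abca8b exons 5 to 10: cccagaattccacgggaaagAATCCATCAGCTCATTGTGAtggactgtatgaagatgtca
None of the 30-base arms printed occurred exactly in a transcript of another gene. For Abca8b, whose neighbours are close paralogs, the donor arm differed from its best match by 3 bases in Abca9, 4 in Abca6 and 7 in Abca8a. The acceptor arm differed by 12, 12 and 13 bases, so a full junction read separates the 4 genes.

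Bnc2 encodes basonuclin 2, a zinc finger transcription factor found in fibroblasts (ENSMUSG00000028487.18). Its first circle was exon 7 of 8 alone, a 1970-nucleotide coding exon (chr4:84291693-84293662, minus strand). Its other circle joined coding exons 2 and 3 across 9700 bp (chr4:84546205-84555904, minus strand) and was 327 nucleotides long when spliced. Tshz2 encodes the teashirt zinc finger transcription factor 2 (ENSMUSG00000047907.11), and its circle was a 2934-nucleotide stretch of coding exon 2 (chr2:169883526-169886459, plus strand). That circle ended at a splice donor inside exon 2 of Tshz2-202 that is an exon end in other annotated Tshz2 transcripts.

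Nav1 encodes neuron navigator 1, a protein of microtubule ends (ENSMUSG00000009418.15). Its circle of exons 4 and 5 (chr1:135532349-135537299, minus strand) and that of exons 3 to 5 (chr1:135532349-135585355) shared the donor at the end of exon 5 and differed in the acceptor. They measured 469 and 1270 nucleotides, and the longer holds the annotated start codon and 1235 coding bases. The third Nav1 junction (chr1:135602545-135607904) lies upstream of the start codon: its donor is the end of noncoding exon 2 of Nav1-207, and its acceptor is an exon of Gm38399, a symbol that RefSeq lists as a synonym of Nav1. Whether that acceptor belongs to Nav1 rests on this synonym alone. Abca8b encodes a lipid transporter of the ABCA family (ENSMUSG00000020620.14), and its circle held coding exons 5 to 10 (chr11:109971685-109977873, minus strand), 976 nucleotides in all.

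**Figure D1:**
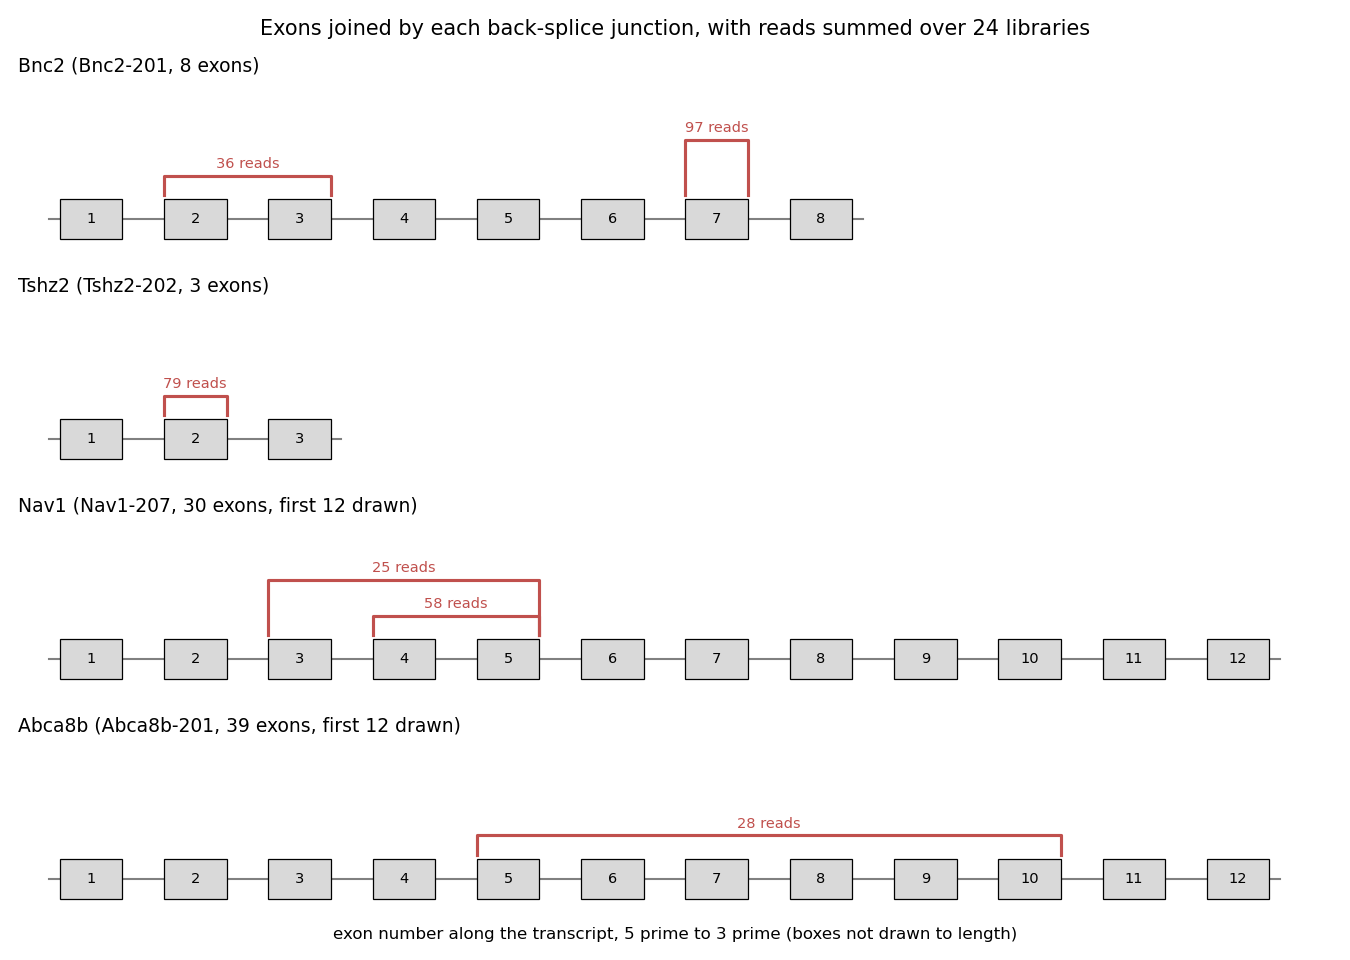
Exons of the 4 host transcripts, numbered along the transcript and not drawn to length, with a bracket for each circle whose ends both met annotated exon edges and its reads summed over 24 libraries. The Tshz2 circle ends at a donor inside exon 2, and the 2 Nav1 circles drawn share the end of exon 5, with 58 reads for exons 4 to 5 and 25 for exons 3 to 5.

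The 5 circles of the transcription factors and of Nav1 with annotated exon edges sat between introns longer than the median, and that of Abca8b did not. The intron before the circle measured 249746 bp for Tshz2, 119070 bp for Bnc2 exons 2 to 3, 97226 bp for Bnc2 exon 7, 47255 bp for Nav1 exons 4 to 5 and 17189 bp for Nav1 exons 3 to 5, against a median of 10952 bp over 1655 circles. The intron after it measured 59477 bp for both Nav1 circles, 39593 bp for Bnc2 exons 2 to 3 and 15245 bp for Bnc2 exon 7, against a median of 9619 bp. For Tshz2 it depended on the transcript: the donor is an exon end in 2 annotated transcripts, and the next exon lies 26148 bp away in one and 183808 bp in the other. Tshz2 exceeded 99.9% of the circles on the first measure and 82.0% or 99.6% on the second. The Abca8b circle had 1988 bp before and 1808 bp after it, longer than 12.6% and 11.5% of circles. These are descriptions of 6 circles from 4 genes, and the 2 Nav1 circles share an intron.

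**Figure D2:**
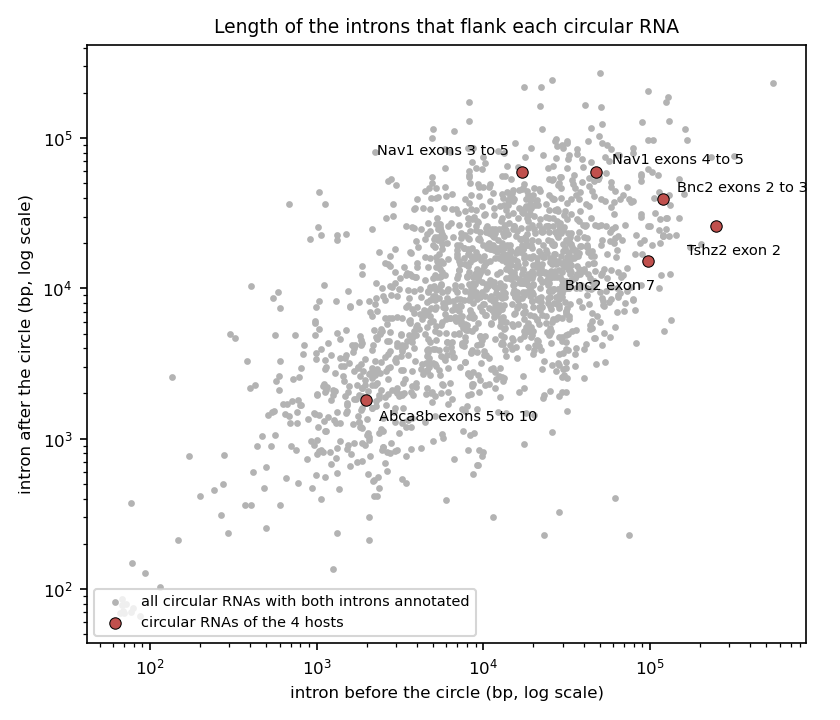
Length of the annotated intron before (x axis) and after (y axis) each circular RNA, both in bp on log scales. The circles of Tshz2, Bnc2 and Nav1, in red, lie above the median of all circles (10952 and 9619 bp) on both axes, and the Abca8b circle lies below it on both. Tshz2 is drawn with the shorter of its annotated introns after the circle, 26148 bp.

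Spliced length also set them apart from each other. The Tshz2 circle was longer than 99.4% of 1657 circles with an annotated structure and Bnc2 exon 7 longer than 98.7%, each from 1 exon, while the median circle had 421 nucleotides and 3 exons. Nav1 exons 3 to 5 exceeded 95.8% and Abca8b 91.7%. The shortest was Bnc2 exons 2 to 3, longer than 29.4% of them. Its length is a multiple of 3, and the reading frame of the host held no stop codon through a whole turn, as was so for Tshz2. This held for 36.4% of 1375 circles made of coding exons alone, so it is a common property. Among those circles, 502 had a length that is a multiple of 3 and 501 of these had an open frame. The open frame thus adds almost nothing to the length.

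Depth was low. The libraries held 3595 to 9146 junction reads, and 1 read was worth 0.642 to 1.57 normalized reads, the unit used below (whole junction reads divided by the authors' library factor). Each junction is counted at 1 position, so levels of different circles need no correction for length. At 4 weeks the TAC libraries (6846 to 9146 reads) were all deeper than the sham libraries (3618 to 6524), and the part of depth in the 4-week values was not tested. Bnc2 exon 7 averaged 4.05 normalized reads over 24 libraries, above 80.3% of the circles in the table. Tshz2 averaged 3.26, the upstream Nav1 junction 2.47, Nav1 exons 4 to 5 2.32, Bnc2 exons 2 to 3 1.44, Abca8b 1.24 and Nav1 exons 3 to 5 1.00. The median circle averaged 1.80. None of the 7 reached a mean of 5 reads per library.

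In each comparison of TAC with sham, 5 of the 7 had a positive fitted difference and 2 a negative one, and none passed the test. Of all circles, 51.9% were positive at 1 week, 56.4% at 4 weeks, 51.4% at 8 weeks and 55.9% averaged. The negative 2 were the upstream Nav1 junction and Abca8b at 1 week, 4 weeks and averaged. At 8 weeks they were Bnc2 exon 7 and Nav1 exons 3 to 5, so the members behind the count changed. The test was limma on log2(normalized reads + 0.5) over the whole table, with Benjamini-Hochberg adjustment over 1717 circles and calls at an adjusted p of 0.05. Limma draws each SE towards the spread of all circles of like level. At 1 week the SEs of Bnc2 exons 2 to 3 (0.81), Nav1 exons 3 to 5 (0.80) and Abca8b (0.81) were near alike. The SEs, intervals and p-values below thus reflect mainly the spread of all circles of like level. A circle's own spread between libraries enters them only a little. At 1 week the test called 0 of the 7, with 1.46% of all circles called (25 circles). Same-numbered sham and TAC libraries of 1 week deviated together, and with their number as a block 40 circles were called, again with 0 of the 7. In the 4 pairs of that week the TAC library had the higher value 4 times for both Bnc2 circles and Nav1 exons 3 to 5, 3 times for Tshz2, 2 times for Nav1 exons 4 to 5, and 1 time for the upstream Nav1 junction and Abca8b. The labels name no animal, litter or day that such a pair shares. For these counts the share over all circles was not computed, so they are descriptions only. The same holds below for counts of TAC libraries above or below a sham mean and for groups kept apart by all but 1 library. At 4 weeks the test called 0, with 0.116% called, and at 8 weeks 0, with 0.0% called. Averaged over the times it called 0, with 0.641% called. Before adjustment, 1 of the 7 had a p under 0.05 at 1 week (11.7% of all circles did), 2 at 4 weeks (7.98%), 1 at 8 weeks (6.06%) and 3 averaged over times (9.9%). Limma-voom on whole reads also called 0 of the 7 in each of the 4 comparisons.

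The median difference of the 7 was 1.17 at 1 week, 0.55 at 4 weeks, 0.42 at 8 weeks and 0.76 averaged, in log2 units. Over all circles the medians were 0.039, 0.12, 0.030 and 0.062. Members of 1 host share a gene, so these are not 7 independent values. In whole-fibroblast RNA, fewer cells of a type and less RNA per cell cannot be told apart. All differences are on the log2(value + 0.5) scale, where the 0.5 added shrinks those of circles with few reads.

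**Figure D3:**
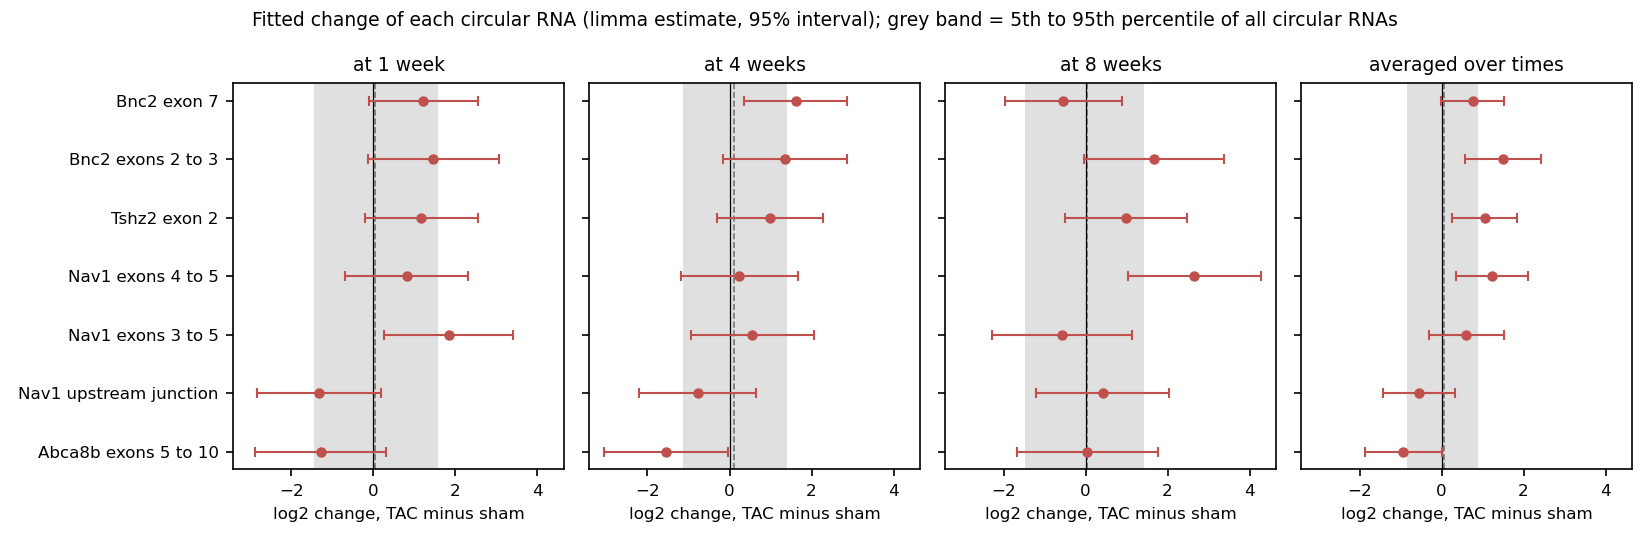
Fitted log2 difference, TAC minus sham, of each circle with its 95% interval (points and bars) at 1, 4 and 8 weeks and averaged over times. Grey bands span the 5th to 95th percentile of all 1717 circles and the dashed line is their median. In the averaged panel the intervals of Bnc2 exons 2 to 3, Tshz2 and Nav1 exons 4 to 5 lie above 0, and none of the 7 passed adjustment.

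Among the transcription factors, the 2 Bnc2 circles both had a positive difference averaged over times. At 1 week Bnc2 exons 2 to 3 measured 2.51, 0, 1.50 and 1.03 normalized reads in the 4 sham libraries and 3.08, 5.75, 2.99 and 2.92 in the 4 TAC libraries. All 4 TAC libraries lay above every sham library, which 2.21% of all circles also showed in that direction. In whole reads the groups met: sham replicate 1 and TAC replicate 1 both had 2 reads and differed only by the library factor. At 4 weeks sham libraries measured 0.934, 0, 1.74, 0 and 0, and TAC libraries 1.69, 2.20, 1.45 and 1.28. Each TAC library then exceeded the sham mean, and sham replicate 3 lay above all of them except TAC replicate 2. At 8 weeks all 4 sham libraries had 0 reads, while the TAC libraries measured 1.20, 0 and 4.29.

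Across the series a read of Bnc2 exons 2 to 3 was present in 5 of 13 sham and 10 of 11 TAC libraries. Its fitted difference was 1.46 ± 0.81 (SE) at 1 week (limma adjusted p = 0.465), 1.36 ± 0.77 at 4 weeks (adjusted p = 0.721) and 1.67 ± 0.87 at 8 weeks (adjusted p = 0.810). Against a floor of 3 reads over the 8-week sham group, 0.783 normalized reads, the TAC mean of 1.83 was at least 2.33-fold higher. That mean rested on 6 reads, 5 of them in 1 library, and the floor covers counting error only. The averaged difference was 1.50 ± 0.47, with a 95% interval of 0.57 to 2.42, and 10 of 11 TAC libraries lay above their sham mean. Its unadjusted p was 0.00157 and its adjusted p 0.135 (limma). Without TAC 8-week replicate 2, the TAC library with 0 reads, the difference was 1.78 and passed the test (limma adjusted p = 0.0402), and without TAC 8-week replicate 3 it was 1.23. Single times moved more: the 1-week difference was 0.95 without sham replicate 2, and the 8-week difference 0.88 without TAC replicate 3.

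Bnc2 exon 7, the most abundant of the 7, did not hold 1 direction across times. At 1 week it measured 2.51, 1.25, 4.51 and 1.03 normalized reads in sham and 9.23, 2.88, 9.98 and 2.92 in TAC libraries. At 4 weeks it measured 0.934, 0, 0, 6.11 and 4.61 in sham and 5.92, 2.20, 7.99 and 3.85 in TAC. Groups overlapped at both times, and the sham libraries at 4 weeks split into 3 near 0 and 2 above 4.5. At 8 weeks sham libraries measured 5.32, 5.50, 2.89 and 5.30, and TAC libraries 8.38, 3.06 and 0.857, which spanned the whole sham range.

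The fitted difference of Bnc2 exon 7 was 1.22 ± 0.67 (SE) at 1 week (limma adjusted p = 0.467), 1.61 ± 0.64 at 4 weeks (adjusted p = 0.499) and -0.55 ± 0.73 at 8 weeks (adjusted p = 0.942). The last turned to 0.14 without TAC replicate 3 and was -1.22 without TAC replicate 1. The averaged difference was 0.76 ± 0.39, above the sham mean in 8 of 11 TAC libraries (limma adjusted p = 0.501). Exon 7 held 37 of 44 Bnc2 reads in sham libraries (84.1%) and 60 of 89 in TAC libraries (67.4%). The reads of exons 2 to 3 made up the rest, 7 and 29.

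Tshz2 exon 2 had a positive fitted difference at each time. At 1 week it measured 3.77, 6.23, 0 and 1.03 normalized reads in sham and 4.61, 1.92, 7.99 and 4.86 in TAC libraries. At 4 weeks it measured 2.80, 3.14, 2.60, 0 and 0.921 in sham and 6.76, 1.47, 2.90 and 3.85 in TAC. At 8 weeks it measured 2.13, 3.30, 1.92 and 1.06 in sham and 2.39, 8.17 and 4.29 in TAC. The groups overlapped at each time, and 9 of 11 TAC libraries lay above their sham mean.

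The fitted Tshz2 difference was 1.17 ± 0.70 (SE), 0.99 ± 0.66 and 0.99 ± 0.76 at 1, 4 and 8 weeks (limma adjusted p = 0.505, 0.803 and 0.885). Each rested in part on 1 library: the first was 0.46 without sham 1-week replicate 3 and the second 0.50 without sham 4-week replicate 4, libraries with no Tshz2 read, and the third was 0.59 without TAC 8-week replicate 2. Averaged, the difference was 1.05 ± 0.41, with a 95% interval of 0.25 to 1.85 (unadjusted p = 0.0104, limma adjusted p = 0.255). At group level the means were 4.95 ± 2.95 (SD, n = 3) in TAC at 8 weeks, 4.85 ± 2.48 (n = 4) in TAC at 1 week and 3.75 ± 2.24 (n = 4) in TAC at 4 weeks. Below them came sham at 1 week with 2.76 ± 2.81 (n = 4), at 8 weeks with 2.10 ± 0.922 (n = 4) and at 4 weeks with 1.89 ± 1.36 (n = 5). No neighbours in that order differed by more than the larger of their SDs.

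The 3 Nav1 junctions did not share a direction. For exons 4 to 5 the 1-week libraries measured 3.77, 4.99, 0 and 0 normalized reads in sham and 1.54, 4.79, 2.99 and 0.973 in TAC. At 4 weeks they measured 0.934, 3.14, 4.34, 2.04 and 1.84 in sham and 5.07, 1.47, 1.45 and 4.50 in TAC. At 8 weeks sham libraries measured 0, 0, 0.962 and 0, 1 read in all, and TAC libraries 3.59, 3.06 and 4.29. The 8-week groups did not overlap, as was so in this direction for 3.09% of all circles, while those at 1 and 4 weeks overlapped.

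For Nav1 exons 4 to 5 the fitted difference was 0.81 ± 0.77 (SE) at 1 week and 0.24 ± 0.73 at 4 weeks (limma adjusted p = 0.744 and 0.971), and with single libraries left out they ranged from 0.27 (without sham replicate 3 or 4) to 1.42 (without sham replicate 2) and from -0.025 (without TAC replicate 1) to 0.48 (without TAC replicate 3). At 8 weeks it was 2.65 ± 0.83, with a 95% interval of 1.03 to 4.28 and an unadjusted p of 0.00139. Its adjusted p was 0.459 (limma), in a comparison where no circle of the 1717 passed. The averaged difference was 1.23 ± 0.45 (limma adjusted p = 0.189), above the sham mean in 7 of 11 TAC libraries. Whether the TAC difference changed between times was tested itself and did not pass (limma F-test, unadjusted p = 0.0797, adjusted p = 0.626).

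Nav1 exons 3 to 5 was scarcer, with at most 3 reads in any library. At 1 week it measured 0, 1.25, 0 and 0 normalized reads in sham and 1.54, 2.88, 2.99 and 0.973 in TAC libraries, and only the lowest TAC library fell under the highest sham one. At 4 weeks it measured 0, 0, 0.868, 1.02 and 0.921 in sham and 0.845, 0.734, 0.726 and 1.28 in TAC. At 8 weeks it measured 2.13, 1.10, 0.962 and 1.06 in sham and 0, 1.02 and 1.71 in TAC, so the groups overlapped there too. The fitted difference was 1.84 ± 0.80 (SE) at 1 week, the lowest unadjusted p of the 7 at that time (0.0227, limma adjusted p = 0.300). It was 0.55 ± 0.76 at 4 weeks and -0.56 ± 0.87 at 8 weeks (limma adjusted p = 0.932 and 0.942). The 4-week value was -0.055 without sham replicates 1 and 2, whose descriptions are written in another form than the rest, and 0.32 without either of them alone. The 8-week value ranged from -1.01 without TAC replicate 3 to 0.061 without TAC replicate 1. Averaged, it was 0.61 ± 0.47 (limma adjusted p = 0.704).

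The upstream Nav1 junction had its higher levels in early sham libraries. At 1 week it measured 6.28, 8.73, 0 and 5.17 normalized reads in sham and 0, 0.959, 2.00 and 1.95 in TAC libraries, so 3 of 4 sham libraries lay above every TAC library. At 4 weeks it measured 3.74, 4.71, 1.74, 6.11 and 0.921 in sham and 0, 4.40, 2.18 and 1.93 in TAC. At 8 weeks it measured 1.06, 2.20, 0 and 1.06 in sham and 1.20, 2.04 and 0.857 in TAC, within 1 range. The fitted difference was -1.33 ± 0.77 (SE), -0.77 ± 0.73 and 0.42 ± 0.83 at 1, 4 and 8 weeks (limma adjusted p = 0.490, 0.885 and 0.964). The first was -2.28 without sham 1-week replicate 3, which had no read of any Nav1 circle, -0.88 without sham replicate 2 and -0.82 without TAC replicate 1. The second was -1.20 without TAC 4-week replicate 2 and -0.11 without TAC replicate 1, and the last ranged from -0.057 without sham 8-week replicate 3 to 0.75 without sham replicate 2. Averaged, it was -0.56 ± 0.45, below the sham mean in 8 of 11 TAC libraries (limma adjusted p = 0.714), with -0.88 without sham 1-week replicate 3 and -0.34 without TAC 4-week replicate 1.

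Summed over the 3 junctions, Nav1 stood at 5.62 normalized reads over the sham libraries and 5.99 over the TAC libraries. This sum depends on the upstream junction, which met Nav1 at 1 end only and averaged 3.21 in sham and 1.59 in TAC libraries. Exons 4 to 5 averaged 1.69 in sham and 3.07 in TAC, and exons 3 to 5 0.716 and 1.34. The upstream junction held 37 of 66 Nav1 reads in sham libraries (56.1%) and 21 of 75 in TAC libraries (28.0%), exons 4 to 5 held 20 (30.3%) and 38 (50.7%), and exons 3 to 5 held 9 (13.6%) and 16 (21.3%). These shares pool reads over libraries and are given as a description with no test. By group, the Nav1 sum was highest in sham at 1 week with 7.55 ± 6.43 (SD, n = 4), followed by sham at 4 weeks with 6.46 ± 2.26 (n = 5), TAC at 4 weeks with 6.15 ± 1.40 (n = 4), TAC at 8 weeks with 5.93 ± 1.05 (n = 3) and TAC at 1 week with 5.89 ± 2.82 (n = 4). Neighbours among these differed by less than their SDs. Sham at 8 weeks was the lowest, with 2.63 ± 0.712 (n = 4), further below TAC at 1 week than either SD, and the lowest TAC library of 1 week lay within its range.

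The Abca8b circle had lower mean levels in TAC than in sham libraries at 1 and 4 weeks. At 1 week its circle measured 2.51, 0, 3.01 and 3.10 normalized reads in sham and 0, 0.959, 0 and 0.973 in TAC libraries. At 4 weeks it measured 2.80, 3.14, 0, 2.04 and 3.69 in sham and 0.845, 0, 0 and 0.642 in TAC. At each of these times 1 sham library had 0 reads and all other sham libraries lay above every TAC library. In whole reads the lowest of those other sham libraries had 2 and the highest TAC libraries 1. The share of all circles with such a pattern was not computed. At 8 weeks it measured 0, 1.10, 0.962 and 1.06 in sham and 0, 2.04 and 0.857 in TAC, without a visible gap.

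A read of the Abca8b circle was present in 10 of 13 sham and 6 of 11 TAC libraries. The fitted difference was -1.29 ± 0.81 (SE) at 1 week (limma adjusted p = 0.542, and -1.97 without sham replicate 2) and -1.54 ± 0.77 at 4 weeks (unadjusted p = 0.0450, adjusted p = 0.609). At 8 weeks it was 0.045 ± 0.88 (adjusted p = 0.996), and it ranged from -0.50 to 0.68 when single libraries were left out. Averaged, it was -0.93 ± 0.47, with a 95% interval of -1.86 to 0.00064, below the sham mean in 9 of 11 TAC libraries (limma adjusted p = 0.501). The order of group means was sham at 4 weeks with 2.33 ± 1.43 (SD, n = 5), sham at 1 week with 2.15 ± 1.46 (n = 4), TAC at 8 weeks with 0.967 ± 1.03 (n = 3), sham at 8 weeks with 0.781 ± 0.524 (n = 4), TAC at 1 week with 0.483 ± 0.558 (n = 4) and TAC at 4 weeks with 0.372 ± 0.437 (n = 4). Every step between neighbours was smaller than the larger SD.

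**Figure D4:**
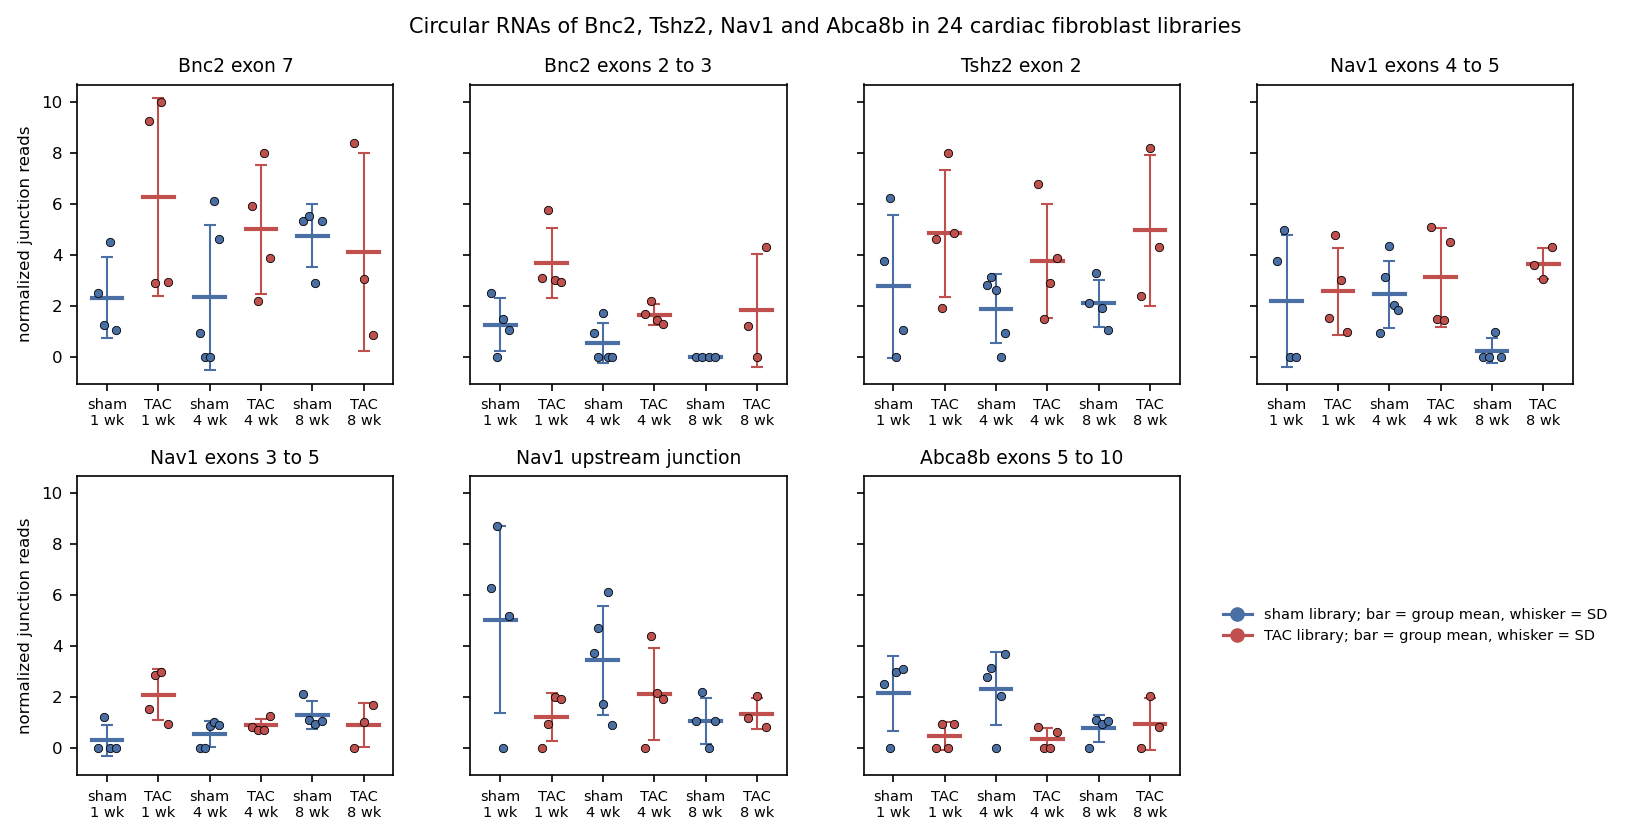
Normalized junction reads of each circle in each of 24 libraries (points), with the group mean (bar) and SD (whisker), sham in blue and TAC in red. The TAC libraries of Bnc2 exons 2 to 3 at 1 week (2.92 to 5.75) and of Nav1 exons 4 to 5 at 8 weeks (3.06 to 4.29) lie above all sham libraries of the same time (at most 2.51 and 0.962), and the other panels overlap. For Bnc2 exons 2 to 3 at 1 week, replicate 1 of sham and of TAC both had 2 whole reads.

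Time after surgery was tested with sham and TAC libraries apart. None of the 7 passed the F-test of the TAC difference between times (limma, 0 of 7, with 0.0% of all circles called), between sham groups (0 of 7, 0.0% called) or between TAC groups (0 of 7, 0.0% called). Limma-voom on whole reads called 0 of the 7 in each as well. Before adjustment, 0 of the 7 had a p under 0.05 for the TAC difference (9.14% of all circles), 2 between sham groups (8.33%) and 0 between TAC groups (6.35%). The pair was Nav1 exons 4 to 5 (unadjusted p = 0.0182, limma adjusted p = 0.503), with sham means of 2.19, 2.46 and 0.241 at 1, 4 and 8 weeks, and Bnc2 exon 7 (unadjusted p = 0.0373, limma adjusted p = 0.579), with sham means of 2.33, 2.33 and 4.75. Summed over both junctions, Bnc2 was highest in TAC at 1 week with 9.94 ± 3.33 (SD, n = 4), then TAC at 4 weeks with 6.65 ± 2.31 (n = 4) and TAC at 8 weeks with 5.93 ± 3.33 (n = 3). Sham groups followed with 4.75 ± 1.25 at 8 weeks (n = 4), 3.59 ± 2.29 at 1 week (n = 4) and 2.86 ± 2.45 at 4 weeks (n = 5), and no step between neighbours exceeded the larger SD.

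The other resting fibroblast markers had differences of both signs. Of 56 marker genes listed, 15 hosted a circle, and the 11 besides the 4 hosts gave 12 circles. Their median difference was -0.30 at 1 week, -0.13 at 4 weeks, -0.052 at 8 weeks and -0.080 averaged, and 5 of the 12 averaged values were positive (55.9% of all circles were). The test called 0 of the 12 at each time and 1 in the average. This was exons 2 to 3 of Svep1, a large adhesion protein of the extracellular matrix (chr4:58175931-58179707). It averaged 5.39 normalized reads in sham and 12.3 in TAC libraries, a rise of 1.22 ± 0.30 (SE, limma adjusted p = 0.0124). It missed the threshold in 4 refits: without sham 8-week replicate 1 (1.03), without TAC 8-week replicate 1 (1.11), without the 2 sham 4-week libraries described in another form (1.06) and with a pseudocount of 0.1 (1.31). The list was drawn up with earlier results of these data known, so its signs are no independent evidence.

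Related genes gave 6 circles from 4 hosts, namely the cholesterol exporter Abca1, the ABCA transporters Abca6 and Abca9, and neuron navigator Nav3. None of the 6 passed in any of the 4 comparisons. Exons 10 to 12 of Nav3 averaged 1.07 normalized reads in sham and 3.26 in TAC libraries, a difference of 1.30 ± 0.47 (limma adjusted p = 0.189). Of the genes next to Abca8b, Abca9 exons 35 to 37 averaged 4.16 in sham and 2.89 in TAC libraries, a difference of -0.29 ± 0.40 (limma adjusted p = 0.887). Abca6 exons 9 to 11 averaged 1.82 and 0.973, a difference of -0.47 ± 0.47 (limma adjusted p = 0.791).

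Circles of other cell states and types moved between the same libraries. The defining fibroblast markers Pdgfra, Tcf21 and Col1a1 and the myofibroblast marker Postn hosted no circle analysed here. In all, 41 of the 56 resting markers listed hosted none. A circle of a marker gene does not identify the cells, so the label of cardiac fibroblast was not tested. At 1 week the 12 other resting marker circles had a median sum of 31.3 normalized reads in sham and 33.8 in TAC libraries. The lists differ in their number of circles, so their sums do not give shares of cells. Of 8 circles of activated fibroblast markers, 3 were called higher at 1 week (those of Tns3, with 2, and Itgbl1, named after their values were seen). The calls fell to 1 without sham 1-week replicate 3 or TAC 1-week replicate 3. At that time the summed level of the 8 was 47.7 to 60.9 normalized reads in TAC against 10.5 to 30.1 in sham libraries. Their sums overlapped later, with 27.9 to 47.9 against 18.4 to 38.3 at 4 weeks and 29.1 to 32.3 against 23.4 to 33.7 at 8 weeks. Of 11 circles of cell cycle genes, 3 were called higher at 1 week, from Cdkn3, Bub1b and Ezh2, and 0 or 1 without any 1 of sham replicates 1 to 3 or TAC replicates 2 to 4, with sums of 66.9 to 104 in TAC against 26.9 to 48.1 in sham.

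Cardiomyocyte genes gave 18 circles, of which 2 were called lower at 1 week (Ryr2 and Ttn) and 2 at 4 weeks (both Ttn). The 1-week calls fell to 1 without sham replicate 2 or 3. Of those at 4 weeks, 0 were left when sham replicate 1, 3 or 4 or TAC replicate 3 was dropped, and 1 when TAC replicate 2 was. The summed levels of the list were 36.4 to 50.9 in TAC against 54.8 to 162 in sham libraries at 1 week, 26.9 to 57.8 against 55.3 to 154 at 4 weeks and 60.0 to 74.6 against 76.0 to 145 at 8 weeks. Of 30 leukocyte marker circles 0 were called by limma at any time, with sums of 98.3 to 192 in TAC against 94.7 to 205 in sham at 1 week. Of 9 endothelial circles 0 were called, with 1-week sums of 12.98 to 22.4 against 7.54 to 22.7, and the 1 mural circle, of Abcc9, was not called either, at 0.973 to 4.61 against 0 to 9.31. The part of these other cells and states in the values of the 4 hosts was not tested.

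The levels of the 4 hosts did not run in parallel across libraries. On log2(summed normalized reads + 0.5) over 24 libraries, Pearson's r was highest for Tshz2 and Nav1 at 0.49 and lowest for Tshz2 and Abca8b at -0.38, with Bnc2 and Abca8b at -0.37. Among 309 or 310 hosts with a mean of at least 5 reads per library, those most like Bnc2 were Glcci1 (0.73), Creb3l2 (0.66) and Zbtb20 (0.59). Those most like Nav1 were Glis3 (0.71), Pde4a (0.67) and Tmem164 (0.66), those most like Abca8b were Med13l (0.59), Snx12 (0.55) and Tasp1 (0.54), and those most like Tshz2 were Setbp1 (0.61), Klhl8 (0.50) and Nav1 (0.49). Without the 2 libraries farthest from each host's median, r became 0.33 for Nav1 with Pde4a, 0.28 for Nav1 with Glis3, 0.30 for Tshz2 with Setbp1 and -0.024 for Tshz2 with Klhl8, so these rest on those libraries. The other 8 ran from 0.44 (Bnc2 with Glcci1) to 0.83 (Bnc2 with Creb3l2). The points share libraries, depth and group structure, so these values are descriptions only. The Nav1 sum used here includes its upstream junction.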

How the data were processed

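The deposited table holds a normalized signal per back-splice junction: after subtraction of 0.01, all values of a column were multiples of 1 step (within 0.001 of a read), so the authors had divided whole reads by a library factor and added 0.01. Reads were handled with STAR, Trimmomatic and FastQC on mm10, per the submitters' processing notes. The name of the deposited table refers to DCC, a caller of back-splice junctions, whose version and settings were not given. The offset was removed. Hosts and exons were assigned from GENCODE M21 exon edges on the junction's strand. Limma 3.58.1 (R 4.3.3) with an intensity trend was fitted on log2(value + 0.5) in all 24 libraries and 6 groups, with no filter and Benjamini-Hochberg adjustment over 1717 circles, and was tested on simulated data. TAC was compared with sham within each time and averaged over times, and times were compared by F-tests. All junctions of the 4 hosts are named, with other genes by list membership or the 3 highest correlations. The members and gene lists were chosen with earlier results of these data known. Alternatives covered scaling, pseudocount, filters, voom, libraries left out and the title replicate number as a block. By the correlation of deviations from group means, sham and TAC libraries with the same title number went together at 1 week (0.15 to 0.26 in 4 pairs). Not every pair did at 4 weeks (-0.19 to 0.14) or 8 weeks (-0.017 to 0.21). At those later times the title numbers of sham libraries differ from the numbers in their descriptions. The check there thus cannot show whether libraries paired by description went together. A block of the 1-week libraries alone was added after seeing the data. No 2 of the 37 within-group library pairs were identical, and each differed beyond counting noise (largest chi-square p 0.0109).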

Additional observations from a re-analysis of the deposited data

Results flagged for a closer look

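Single libraries stood apart within their group for 7 of the 44 sets of values examined, by the gap to the nearest library over the group's range. The rule is set for chance to meet it about 1 time in 20, a rate that small whole counts with ties need not keep. In sham at 8 weeks, replicate 3 was low for Bnc2 exon 7 (2.89 normalized reads) and so for the Bnc2 sum (2.89), and high for Nav1 exons 4 to 5 (0.962, with the others at 0). In the same group replicate 1 was high for Nav1 exons 3 to 5 (2.13) and low for Abca8b (0). In TAC at 1 week, replicate 2 was high for Bnc2 exons 2 to 3 (5.75). In sham at 1 week, replicate 2 had the only read of Nav1 exons 3 to 5 in its group (1.25). Most of these gaps are the worth of 1 or 2 reads.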

How the results depend on the processing

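Of 931 refitted differences of the 7 circles, 921 kept their direction and their side of the threshold. Many of these could not change direction, because leaving out a library of another time leaves a single-time difference as it was. The filter of 2 reads in 3 libraries removed no circle and repeats the main fit. The count therefore overstates how stable the differences were. Leaving out TAC 8-week replicate 2 gave the 1 call of a member, Bnc2 exons 2 to 3 in the average (1.78, adjusted p = 0.0402), so that 0 to 1 members were called when libraries were left out in turn. Signs turned for Nav1 exons 3 to 5 at 4 weeks without the 2 sham libraries described in another form (-0.055) and for Abca8b at 8 weeks with a pseudocount of 0.1 (-0.073). With single libraries left out, the range was -0.025 to 0.48 for Nav1 exons 4 to 5 at 4 weeks, and at 8 weeks -1.22 to 0.14 for Bnc2 exon 7, -1.01 to 0.061 for Nav1 exons 3 to 5, -0.057 to 0.75 for the upstream Nav1 junction and -0.50 to 0.68 for Abca8b. The causes were not tested.

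Counts over all circles moved more. At 1 week 25 calls became 40 with the replicate block of the 1-week libraries alone, 11 with voom, 4 with the compared groups alone and 6 (without sham replicate 2) to 32 (without sham replicate 4) with libraries left out. At 4 weeks 2 became 6 with TMM scaling, 0 and 6 with pseudocounts of 0.1 and 1, 7 with voom, 14 with the compared groups alone and 0 to 7 with libraries left out. Averaged, 11 became 5 with a pseudocount of 0.1, 19 with voom and 4 (without TAC 8-week replicate 1) to 17 (without sham 1-week replicate 1). Of F-tests that called 0, the TAC difference between times gave 0 to 3 with libraries left out. Sham between times gave 2 with TMM, 1 with a pseudocount of 1, 2 with a mean of at least 5 reads, 1 with voom, 1 without the 2 sham libraries described in another form and 0 to 7 with libraries left out. TAC between times gave 1 with a pseudocount of 0.1, 2 with voom, 5 with the compared groups alone and 0 to 1 with libraries left out. Counts within marker lists moved in 56 of 241 refits, and cell cycle calls at 1 week fell from 3 to 0 without TAC 1-week replicate 2 or 4.

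With the replicate block over all times, 4-week calls were 4 in place of 2. Neither block called a member. Outside the 1-week pairs the libraries share only a title number, and for sham libraries of the later times it differs from the number in the description. Over all 55 same-numbered pairs, those of 1 week included, the correlation of deviations ran from -0.29 to 0.28. Of these, 15 were above 0.1 and 14 highest with their own number. No member had a mean of at least 5 reads, so that filter gives them no value, and the filter of 2 reads in 3 libraries removed none. The quasi-likelihood count test, planned as the main test if the values were raw counts, was not run, because the deposited values carry a library factor and an offset. The whole reads recovered from them were tested with limma-voom only. With 25 to 97 reads per circle over 24 libraries, depth limits every value of the members.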
